A study of Mus musculus with 12 samples.

Results

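The transcripts of 38 genes of the skeletal muscle contractile and calcium machinery were followed in RNA from inguinal fat of mice. The members are the rows of the deposited tables whose gene name is on a given list of 38 symbols, out of 55536 genes in all, and each of the 38 was found once. By the fibre type in which each is mainly used, 14 are fast fibre genes, 8 are slow fibre genes and 16 serve both. RNA sequencing was made, by the account of the study's results, from the stromal vascular fraction (SVF), the cells left once a fat depot is digested and the lipid-filled adipocytes are removed, of 12 male mice of mixed C57BL6/J-129SV background kept at room temperature. The labels give 4 wild type mice of 2 months, 4 wild type mice of 12 months and 4 PdgfrB Knock Out mice of 12 months. They are named here 2-month control, 12-month control and Pdgfrβ-KO, with 1 library per mouse. By the study's results the sequenced Pdgfrβ-KO mice had been induced with tamoxifen.

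The study's mouse model bears on how the groups can be read. In Pdgfrβ-KO mice the floxed Pdgfrb gene is cut out by a tamoxifen-inducible Cre, Sma-Cre ERT2, driven by the promoter of smooth muscle actin, a gene of vascular smooth muscle and perivascular cells that is not the actin of mature skeletal fibres. The control model of the study carries the same Cre with a Rosa26 reporter, whereas the labels call the controls wild type. Whether the sequenced controls received tamoxifen is not given in the sources used here. Inguinal fat lies beside muscle of the body wall and thigh, and the depots were minced, digested with collagenase and strained before SVF was collected. The study's results name SVF as the source of the sequenced RNA, its sequencing methods name RNA of the inguinal fat depot, and the labels name primary cells of adipose tissue.

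A skeletal muscle fibre contracts when calcium leaves the sarcoplasmic reticulum through the ryanodine receptor, binds troponin C on the thin filament and lets myosin of the thick filament pull on actin. Calcium is then pumped back by the SERCA pump and buffered by parvalbumin and calsequestrin. Adult fibres are told apart by their myosin heavy chain, which is Myh4 in type IIB, Myh1 in type IIX, Myh2 in type IIA and Myh7 in slow fibres, and most other sarcomere proteins have a fast and a slow form. Muscle of mouse limb and trunk is largely fast and rich in Myh4.

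The sequence before the start of each adult myosin heavy chain gene is shown because these 4 genes mark the fibre types and most other members rose and fell together between libraries. Each run holds 200 bases, from 250 to 51 bases before the RefSeq start, read along the gene's own strand on GRCm38.p6. For Myh7 the more upstream of 2 RefSeq starts was used. Capitals mark matches to the E-box CAGCTG, which binds myogenic factors such as MyoD, to the MEF2 site and to the CArG box of serum response factor. The positions are chr11:67237562-67237761 for Myh4, chr11:67199852-67200051 for Myh1 and chr11:67170777-67170976 for Myh2, all on the plus strand, and chr14:54994677-54994876 on the minus strand for Myh7.
Myh4: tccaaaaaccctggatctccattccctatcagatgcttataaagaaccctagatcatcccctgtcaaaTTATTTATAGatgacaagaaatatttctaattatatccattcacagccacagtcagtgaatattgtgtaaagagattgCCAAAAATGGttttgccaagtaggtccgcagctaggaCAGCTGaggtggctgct
Myh1: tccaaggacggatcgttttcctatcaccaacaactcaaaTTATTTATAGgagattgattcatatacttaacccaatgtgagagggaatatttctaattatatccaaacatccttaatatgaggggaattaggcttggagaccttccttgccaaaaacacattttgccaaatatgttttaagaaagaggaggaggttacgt
Myh2: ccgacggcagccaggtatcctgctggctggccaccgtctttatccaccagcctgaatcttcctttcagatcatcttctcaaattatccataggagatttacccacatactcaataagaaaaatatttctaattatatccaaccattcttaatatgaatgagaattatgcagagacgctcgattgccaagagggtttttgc
Myh7: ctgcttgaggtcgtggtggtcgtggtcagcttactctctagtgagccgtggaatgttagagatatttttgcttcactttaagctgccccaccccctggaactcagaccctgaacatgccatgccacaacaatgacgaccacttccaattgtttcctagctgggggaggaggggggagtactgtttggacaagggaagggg

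The Myh4 run held all 3 kinds of match, at 182 (MEF2 site), 104 (CArG box) and 67 (CAGCTG) bases before the start. The MEF2 match of Myh1, at 211 bases, had the same letters as that of Myh4. Neither Myh2 nor Myh7 had a match in these windows, which says nothing about the factors. Of the members, 30 had a promoter in the RefSeq table (250 bases before to 50 after the start, either strand searched). CAGCTG stood in 16 of the 30 (53.3%) against 18.3% of 26994 genes, and the wider E-box CANNTG, which contains it, in 26 (86.7%) against 75.0%. The MEF2 site stood in 7 (23.3%) against 3.70%, the CArG box in 4 (13.3%) against 1.81% and TATAAA in 7 (23.3%) against 15.7%. These matches are a description of letters, not of binding.

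The values reported are normalized counts, gene counts divided by a size factor of the library by the authors and rounded to whole numbers. The total of a library lay between 19.6 and 21.9 M, and the counts behind them were estimated at 21.4 to 24.8 M in 2-month controls, 21.0 to 29.0 M in 12-month controls and 13.8 to 19.97 M in Pdgfrβ-KO, so the members are read at lower depth in the knockout. Pdgfrb itself stood at 3000, 4380, 3258 and 2399 in the 12-month controls and at 1882, 2145, 1707 and 1749 in Pdgfrβ-KO. It fell by 0.77 on the log2 scale (limma, adjusted p = 0.0160), and the groups did not overlap. The labels name no batch.

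Muscle transcripts were present in each of the 12 libraries at a low level. The 38 members summed to 10154, 5420, 15931 and 12484 normalized counts in the 2-month controls, to 6671, 14559, 8101 and 7328 in the 12-month controls and to 3028, 5726, 2904 and 3168 in Pdgfrβ-KO. As a share of the library that was 529 ± 211, 452 ± 173 and 176 ± 58.7 per 1e6 normalized counts (mean ± SD, n = 4 each). The sum includes Eno3, whose mean was 749 in 2-month controls, 721 in 12-month controls and 735 in Pdgfrβ-KO. The energy supply members, Eno3 among them, made up a mean of 22.1%, 20.4% and 34.2% of the sum in these groups. The controls of both ages lay in one wide range, in which the highest library held 2.94 times the lowest at 2 months and 2.18 times at 12 months. In Pdgfrβ-KO 3 libraries lay close together below every control, and the remaining one, replicate 2, lay above the lowest 2-month control and below every 12-month control. In bulk RNA, fewer muscle fibres in a sample and less RNA per fibre cannot be told apart, and neither can a change in the tissue and a change in how much muscle came with the dissected depot.

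**Figure D1:**
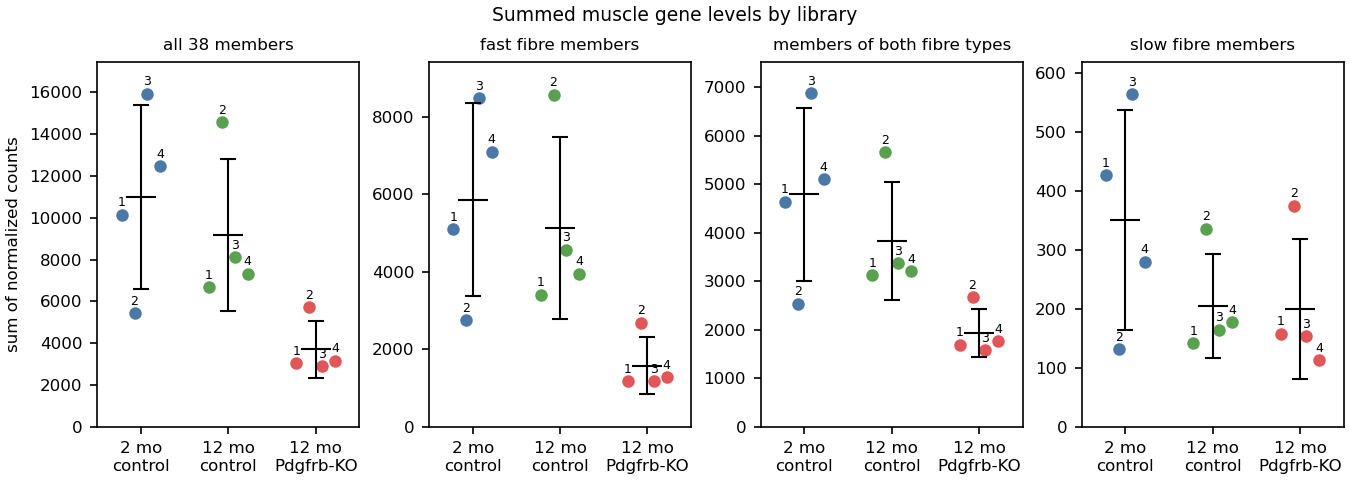
Sum of normalized counts per library over all 38 members and over the fast, shared and slow fibre members, each panel with its own axis from 0. Points are libraries with their replicate number, and the black bar is the mean ± SD of 4 libraries. In 3 of the 4 Pdgfrβ-KO libraries the sum of all members is between 2904 and 3168, below every control, while the slow fibre sums of the 12-month groups overlap.

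Thin filament genes led the levels in the controls. Per kilobase of exon model, Acta1, the actin of skeletal muscle, had the highest mean in 2-month controls with 875 normalized counts, followed by Tnnc2 (594), Tnnt3 (579), Mylpf (462) and Eno3 (431). In the 12-month controls Acta1 also led with 504, but in Pdgfrβ-KO the highest member was Eno3 with 423, ahead of Tnnc2 with 206. The lowest per kilobase in Pdgfrβ-KO was Ttn with 0.54. Defining markers of mature fibres were thus present in every library, with Acta1 at 83 or more, Ckm at 98 or more and Myh4 at 49 or more. Slow isoforms were low in the controls, where the 8 slow members made up between 2.04% and 4.21% of the member sum, and they made up between 3.57% and 6.55% in Pdgfrβ-KO.

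**Figure D2:**
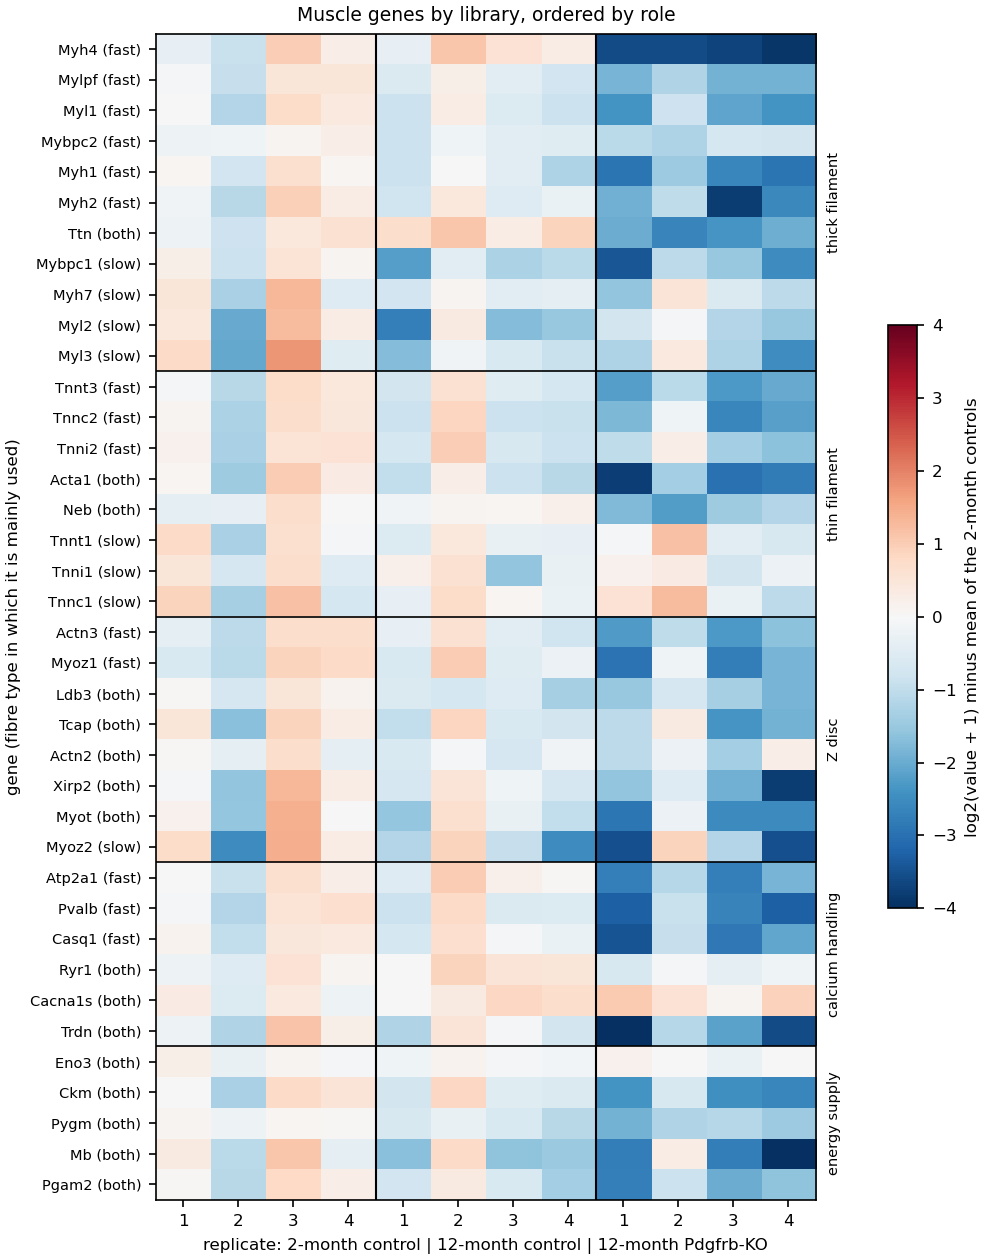
Level of each of the 38 members in each library, as log2(value + 1) minus the mean of the 2-month controls, in blocks by role, with the fibre type in brackets. Red is higher and blue lower than the 2-month mean. The 4 right-hand columns are blue for most fast and shared members, while the rows of Eno3 and Ryr1 stay pale and that of Cacna1s is pale to red, and column 2 of Pdgfrβ-KO is paler than its neighbours except for Myh4, Ttn, Neb and Mybpc2.

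Most members followed each other closely from mouse to mouse. In 2-month controls 36 of 38 members had their lowest value in replicate 2 and 31 had their highest in replicate 3. In 12-month controls 35 had their highest in replicate 2, and in Pdgfrβ-KO 31 had their highest in replicate 2 as well. Pearson's r of a member with the sum of the other members over the 12 libraries, which share the group differences, was 0.90 or more for 16 members and reached 1.00 for Tnnt3 (fast troponin T), 0.99 for Ckm and 0.99 for Myl1. It was under 0.5 for Tnnt1, Tnnc1, Eno3, Tnni1 and Cacna1s. With group means taken off first, r was 0.86 for Tnnt1, 0.73 for Tnnc1, 0.58 for Eno3 and 0.53 for Tnni1. It was then under 0.5 for Neb (0.15), Mybpc2 (0.28), Cacna1s (0.31) and Ttn (0.48), and 0.97 for both Ckm and Myl1. These coefficients are descriptions over 12 points, which fall into 3 groups.

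Between the ages of the controls few members differed. At an adjusted p under 0.05 (limma over all genes tested, two-sided, n = 4 per group) 4 of the 38 members were lower at 12 months and 0 were higher, where 11.4% of all 16399 genes tested were lower and 11.3% higher. The members' 4 of 38 is a share near that background. The groups were apart for 1 member, Pygm, where 12.5% of all genes did not overlap and were lower. The median log2 fold change was -0.35 over the members and -0.01 over all genes.

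Pygm, the glycogen phosphorylase of muscle, stood at 714, 570, 696 and 677 in 2-month controls and at 428, 541, 434 and 305 in 12-month controls. Every 12-month control was below every 2-month control, and the change was -0.66 ± 0.15 on the log2 scale (estimate ± SE, adjusted p = 0.0097). The other 3 were the slow and fast myosin binding proteins C, which brace the thick filament, and a Z disc protein. Mybpc1, the slow form, stood at 138, 64, 173 and 126 and then at 25, 87, 48 and 55, and Mybpc2, the fast form, at 362, 374, 451 and 506 and then at 233, 370, 311 and 297. Ldb3, which anchors actinin at the Z disc, stood at 154, 95, 211 and 166 and then at 100, 93, 104 and 59. The groups overlapped for these 3 members, whose adjusted p were 0.0284, 0.0384 and 0.0395, and each of these calls was lost in most of the 8 fits without 1 library. The count was 7 without 2-month control replicate 2 and 2 without 2-month control replicate 1 or 12-month control replicate 1. It was 2 (1 higher and 1 lower) without 2-month control replicate 4, and 1 without 2-month control replicate 3 or 12-month control replicate 4. Pygm and Mybpc2 varied little between the 2-month controls, with coefficients of variation of 9.73% and 16.0% against 58.1% for Acta1 and 49.8% for Ckm. With group means taken off, their r with the other members was 0.54 and 0.28, and that of Mybpc1 and Ldb3 was 0.73. Which cells these transcripts came from was not tested.

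The fibre type IIB myosin and the giant protein titin were among 7 of 38 members with a log2 difference above 0 between the ages. Myh4 stood at 586, 392, 1440 and 878 in 2-month and at 584, 1588, 1105 and 910 in 12-month controls, with overlapping groups and a log2 difference of 0.42 (95% interval -0.55 to 1.39, limma). Ttn, the molecular spring between the Z disc and the M band, stood at 256, 165, 397 and 450 and at 482, 636, 359 and 547, a difference of 0.75 (0.15 to 1.35, adjusted p = 0.0713). The Ttn call was gained without 2-month control replicate 4 or without 12-month control replicate 3. Neither gene passed the test with all libraries.

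Between the 12-month groups the members differed more often than all genes did. In Pdgfrβ-KO 17 of the 35 members tested were lower than in 12-month controls and 0 were higher, where 4.46% of all 16344 genes tested were lower and 4.96% higher. The remaining 3 members (Myl2, Myl3 and Myoz2, all slow) did not reach a value of 10 in 4 libraries and were not tested. The groups did not overlap for 14 members, all of them called and lower, against 8.06% of all genes. The median log2 fold change was -1.32 over the members tested and -0.01 over all genes. By fibre type, 10 of 14 fast members and 7 of 16 shared members fell, and 0 of the 5 slow members tested passed in either direction. The medians of the 3 classes were -1.71, -1.25 and 0.08. In the 8 fits without 1 library 9 members passed each time (Myh4, Ttn, Acta1, Myh1, Atp2a1, Tnnt3, Actn3, Mylpf and Neb). The count was 9 without 12-month control replicate 2, 10 without Pdgfrβ-KO replicate 1 and 11 without 12-month control replicate 3 or Pdgfrβ-KO replicate 4.

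**Figure D3:**
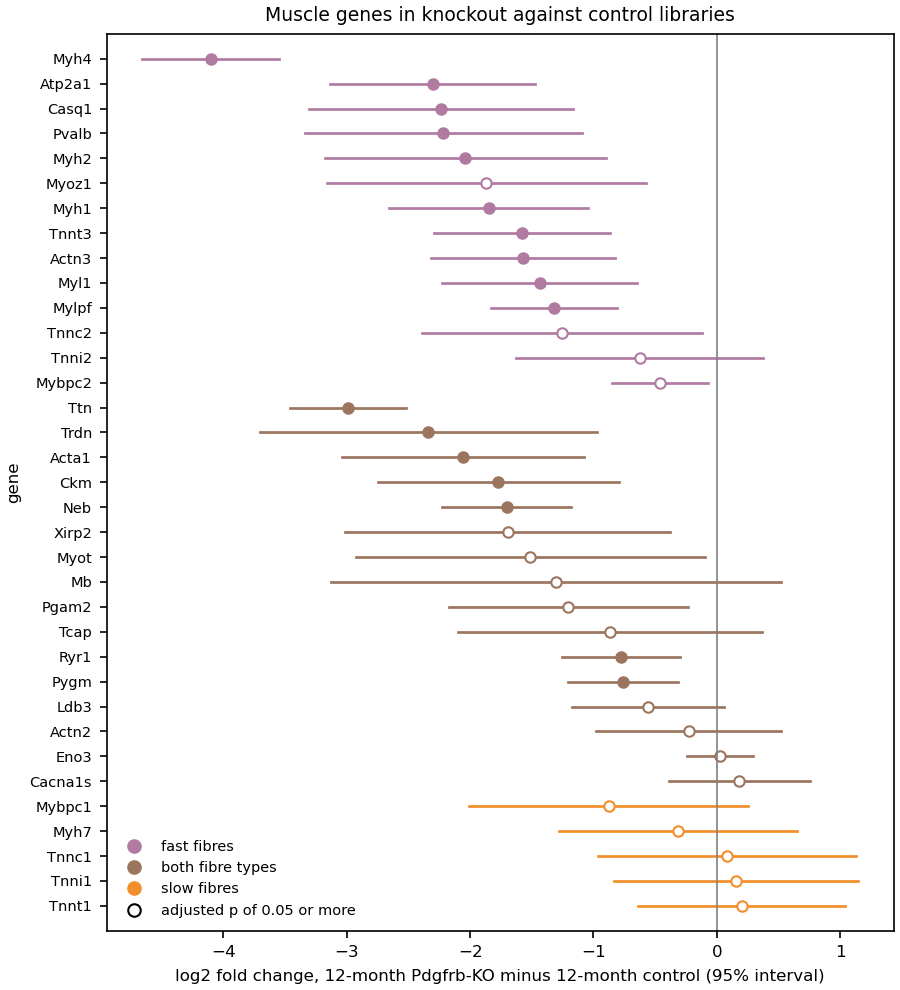
Log2 fold change of the 35 members tested, Pdgfrβ-KO minus 12-month control, with 95% intervals from limma (n = 4 per group). Colours give the fibre type, and filled points passed at an adjusted p under 0.05. Myh4 lies at -4.10 and Ttn at -2.99, apart from the others, and the 5 slow members are open points whose intervals span 0.

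Thick filament members showed the widest range. Myh4, the myosin of type IIB fibres, stood at 584, 1588, 1105 and 910 in the 12-month controls and at 60, 61, 56 and 49 in Pdgfrβ-KO. The knockout values lay close together and far below every control. Its mean was 18.5-fold lower, and the change was -4.10 ± 0.25 on the log2 scale (adjusted p = 1.6e-05). An exact permutation test of this gene alone gave p = 0.0286, the smallest that 70 regroupings of 8 libraries allow (two-sided, 0.114 after adjustment over 12 such tests).

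Ttn had the next largest fall. It stood at 482, 636, 359 and 547 in the 12-month controls and at 73, 46, 57 and 75 in Pdgfrβ-KO, with no overlap. The mean was 8.06-fold lower and the change was -2.99 ± 0.21 (adjusted p = 4.4e-05). Against the 2-month controls, at 165 to 450, the knockout values were also lower without overlap.

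The other fast myosins fell less than Myh4. Myh1, of type IIX fibres, stood at 104, 192, 137 and 80 in 12-month controls and at 24, 68, 30 and 24 in Pdgfrβ-KO, 3.51-fold lower (adjusted p = 0.0108). Myh2, of type IIA fibres, stood at 47, 111, 58 and 69 and at 21, 41, 5 and 13, 3.56-fold lower (adjusted p = 0.0332). Both pairs of groups were apart, but Myh2 passed in only 2 of the 8 fits without 1 library. Among the light chains that sit on the myosin neck, Mylpf stood at 303, 536, 330 and 270 and at 124, 198, 122 and 122, and Myl1 at 252, 557, 315 and 251 and at 86, 258, 105 and 87. Mylpf fell by 1.32 without overlap (adjusted p = 0.0061), and Myl1 fell by 1.44 (adjusted p = 0.0310) with 1 knockout library, replicate 2, above 2 of the controls, and passed in 2 of the 8 fits without 1 library.

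The slow thick filament genes gave another picture. Myh7 stood at 15, 28, 19 and 20 in 12-month controls and at 8, 38, 17 and 12 in Pdgfrβ-KO, a log2 difference of -0.31 with a 95% interval of -1.28 to 0.65. The groups overlapped fully, and at these low values the interval holds changes in both directions. Myl2, the slow regulatory light chain, was at 2 to 25 and at 6 to 18, and Myl3 at 4 to 14 and at 2 to 21. Mybpc1 stood at 25 to 87 and at 10 to 56 (adjusted p = 0.302), and Mybpc2 at 233 to 370 and at 177 to 256 (adjusted p = 0.126). The Myh7 gene has a near-identical neighbour, the heart gene Myh6, with at most 21 normalized counts in any library, and reads could be split between them. The same holds among Myh1, Myh2 and Myh4, which lie side by side on chromosome 11.

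In the thin filament 3 of 8 members fell, the shared Acta1 and Neb and the fast Tnnt3. Acta1 stood at 571, 1361, 634 and 533 in 12-month controls and at 83, 446, 142 and 162 in Pdgfrβ-KO, 3.72-fold lower without overlap (change -2.06 ± 0.45, adjusted p = 0.0168). Tnnt3 stood at 500, 1261, 585 and 506 and at 178, 387, 166 and 203, 3.05-fold lower without overlap (adjusted p = 0.0130). Neb, nebulin, which runs along the thin filament and sets its length, stood at 126, 151, 146 and 160 and at 40, 29, 52 and 61. Its change was -1.71 ± 0.24 (adjusted p = 0.0018), and the groups were apart.

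The fast troponins C and I did not pass. Tnnc2, the calcium sensor of fast fibres, stood at 234, 772, 235 and 230 in 12-month controls and at 121, 377, 69 and 93 in Pdgfrβ-KO (log2 difference -1.26, adjusted p = 0.148), and Tnni2, its inhibitory partner, at 212, 683, 223 and 189 and at 170, 415, 136 and 111 (-0.63, adjusted p = 0.407). Both groups had 1 high library, replicate 2 in each. The Tnnc2 gene shares 592 exon bases with Ube2c on the opposite strand, a gene with a mean of 153, and whether counting used strand is not given in the sources used here. The slow troponins Tnnt1 (38 to 76 in controls, 36 to 127 in Pdgfrβ-KO), Tnni1 (10 to 49 and 19 to 41) and Tnnc1 (17 to 37 and 10 to 54) had differences of 0.20, 0.16 and 0.08 with 95% intervals of -0.64 to 1.04, -0.83 to 1.14 and -0.96 to 1.13.

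Of the Z disc members, 1 of 7 tested fell. Actn3, the actinin of fast fibres, stood at 249, 485, 235 and 182 in 12-month controls and at 65, 156, 63 and 101 in Pdgfrβ-KO, 2.99-fold lower without overlap (adjusted p = 0.0165). Its partner of all fibres, Actn2, stood at 60, 88, 57 and 83 and at 44, 77, 35 and 110, a difference of -0.23 (95% interval -0.98 to 0.52). The calcineurin-binding Myoz1 stood at 35, 110, 38 and 45 and at 6, 47, 7 and 14 (adjusted p = 0.0714), and Xirp2 at 25 to 58 and at 2 to 28 (adjusted p = 0.0999). Myot, Tcap and Ldb3 had adjusted p between 0.160 and 0.349. The slow Myoz2 was at 1 to 20 in controls and at 0 to 20 in Pdgfrβ-KO, too low to test.

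Calcium handling was the role with the highest share called, 5 of 6 members, all lower. Atp2a1, the SERCA pump of fast fibres, stood at 399, 1142, 650 and 590 in 12-month controls and at 84, 256, 85 and 156 in Pdgfrβ-KO. It was 4.79-fold lower without overlap (change -2.31 ± 0.38, adjusted p = 0.0043). The exons of Atp2a1 overlap those of Rabep2 on the other strand by 763 bases, and Rabep2 had a mean of 1078 normalized counts, so part of the Atp2a1 values could belong to it. Casq1, the calcium store of the fast reticulum, stood at 79, 207, 126 and 107 and at 11, 68, 17 and 30. Pvalb, the parvalbumin that speeds relaxation, stood at 179, 556, 221 and 222 and at 33, 176, 51 and 33. They were 4.12-fold and 4.02-fold lower without overlap (adjusted p = 0.0170 and 0.0222), but without 12-month control replicate 2 the adjusted p of each passed 0.05, and that of Pvalb also did without Pdgfrβ-KO replicate 1.

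The triad, where the surface membrane meets the reticulum, holds 2 calcium channels, whose changes were not tested against each other. Ryr1, the calcium release channel, stood at 105, 198, 152 and 148 in 12-month controls and at 68, 102, 81 and 95 in Pdgfrβ-KO, 1.74-fold lower without overlap (adjusted p = 0.0484). Cacna1s, the voltage sensor that opens it, stood at 49, 62, 87 and 79 and at 100, 73, 52 and 92, with a difference of 0.18 (95% interval -0.39 to 0.76). Over the 12 libraries Cacna1s was the member least like the rest, with an r of -0.26 with their sum. With group means taken off first its r was 0.31, and the lowest was that of Neb, 0.15. Trdn, triadin, which couples calsequestrin to the release channel, stood at 20, 67, 45 and 28 and at 2, 21, 10 and 3, 4.44-fold lower (adjusted p = 0.0392), with groups that overlapped by 1 library. Ryr1 and Trdn each passed in 1 of the 8 fits without 1 library.

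The enzymes and oxygen store that feed contraction differed among themselves. Ckm, the creatine kinase of muscle, stood at 360, 1062, 423 and 396 in 12-month controls and at 113, 383, 109 and 98 in Pdgfrβ-KO, 3.19-fold lower (change -1.77 ± 0.44, adjusted p = 0.0312), with knockout replicate 2 above the lowest control and a call that held in 2 of the 8 fits without 1 library. Pygm stood at 428, 541, 434 and 305 and at 178, 289, 297 and 241, 1.70-fold lower without overlap (adjusted p = 0.0406), a call that held in 3 of those fits. Mb, myoglobin, stood at 29, 161, 30 and 33 and at 13, 116, 13 and 5 (adjusted p = 0.342), and Pgam2 at 46, 101, 51 and 30 and at 11, 43, 19 and 25 (adjusted p = 0.111). Eno3, the muscle enolase, stood at 652, 824, 713 and 694 and at 843, 750, 621 and 726, a difference of 0.03 with a 95% interval of -0.24 to 0.29.

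**Figure D4:**
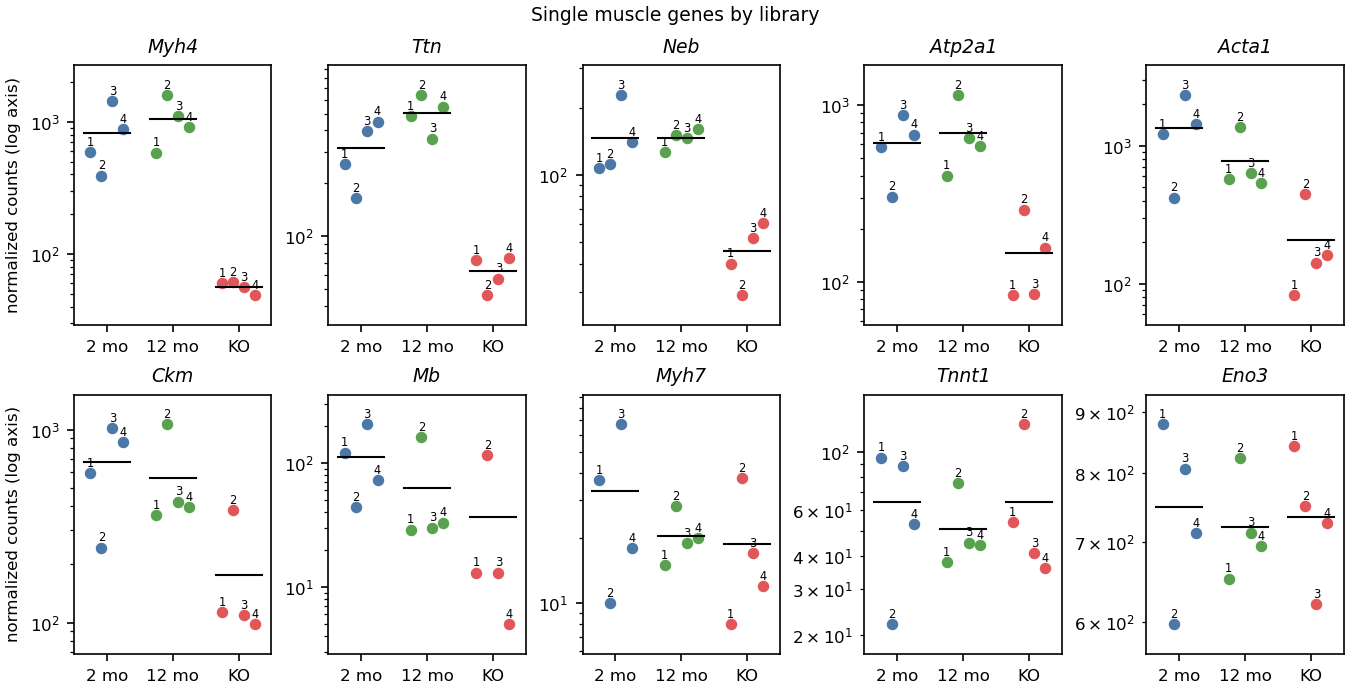
Normalized counts of 10 members in each library on log axes, with the replicate number at each point and a black line at the group mean (n = 4). In Pdgfrβ-KO replicate 2 stands above its group for Acta1 (446), Ckm (383) and Mb (116), but not for Myh4 (61), Ttn (46) or Neb (29), where the 4 knockout libraries lie together below every control.

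Pdgfrβ-KO replicate 2 was unlike the other knockout libraries for most members, but not for Myh4, Ttn and Neb. It held 5726 normalized counts of members, against 6671 in the lowest 12-month control, and its Ckm (383) and Acta1 (446) were near the values of 12-month control replicate 1 (360 and 571). Its Myh4 was 61 against 584 in that control, its Ttn 46 against 482 and its Neb 29 against 126. Of all members, Ttn, Neb and Mybpc2 had their lowest knockout value in this library. In relation to Ckm, Myh4 was between 1.495 and 2.61 in 12-month controls, between 0.99 and 1.61 in 2-month controls and between 0.16 and 0.53 in Pdgfrβ-KO, so this ratio was lower in each knockout library than in each control. In relation to Acta1, Myh4 was between 1.02 and 1.74 in 12-month controls and between 0.14 and 0.72 in Pdgfrβ-KO, but the knockout overlapped the 2-month controls at 0.48 to 0.93. Ttn in relation to Ckm overlapped between the 12-month groups (0.60 to 1.38 and 0.12 to 0.77) and with the 2-month controls (0.39 to 0.68). With Pdgfrβ-KO replicate 2 and 12-month control replicate 2 both left out, the log2 change of Myh4 was -3.91 and that of Ttn -2.73. These libraries had the highest member sums of their groups and were picked after the values were seen. Leaving them out narrows the spread of the values tested, so no count or p is given for this fit. Tnnt3 in relation to Ckm overlapped between the 3 groups (1.19 to 1.39, 1.29 to 1.57 and 1.01 to 2.07).

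The make-up of the myosin heavy chains, as the share of Myh1, Myh2, Myh4 and Myh7 per kilobase of exon model, therefore differed between groups, which is given here without a test. Myh4 made up 68.0%, 73.2%, 75.7% and 75.5% in 2-month controls, 79.7%, 84.3%, 85.2% and 86.0% in 12-month controls and 56.6%, 32.7%, 55.7% and 53.8% in Pdgfrβ-KO. The 3 groups did not overlap in this share. Myh7 made up 1.08% to 3.00%, 1.02% to 1.43% and 5.27% to 14.2%, and Myh1 14.6% to 21.7%, 7.16% to 13.4% and 21.4% to 34.5%. The slow share was thus higher in each knockout library than in each control, on the basis of 8 to 38 normalized counts of Myh7 a library.

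**Figure D5:**
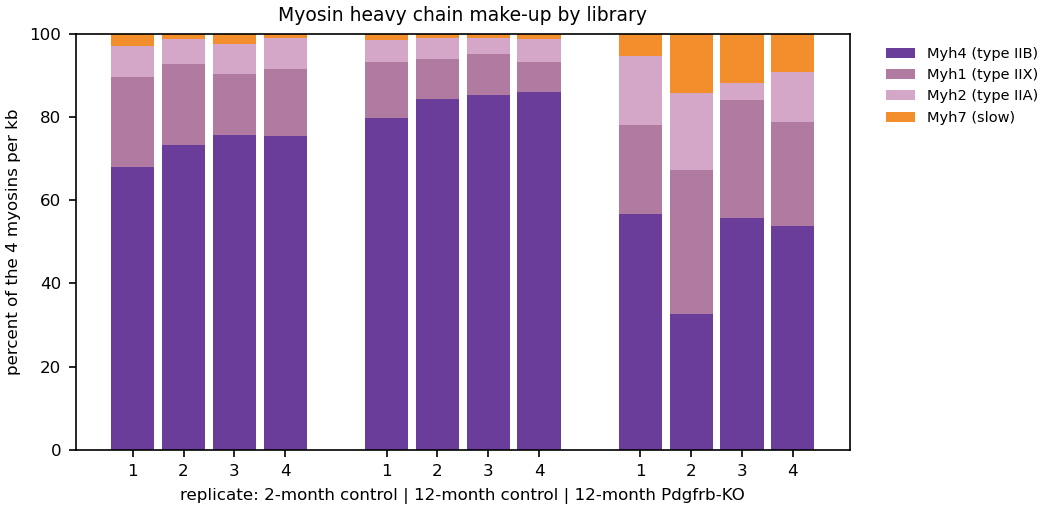
Share of each adult myosin heavy chain per kilobase of exon model, in percent of the 4, stacked for each library. Myh4 takes 79.7% to 86.0% in 12-month controls and 32.7% to 56.6% in Pdgfrβ-KO, and Myh7 takes 5.27% to 14.2% there.

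The fast and slow forms of other proteins are given in the same way. The fast form made up 92.1% to 96.7% of troponin T per kilobase in 2-month controls, 94.1% to 95.9% in 12-month controls and 80.9% to 88.7% in Pdgfrβ-KO, where it was lower in each library than in each control. For troponin C the ranges were 93.6% to 98.3%, 93.0% to 96.4% and 82.7% to 92.4%, also apart. For troponin I (93.2% to 98.2% in 12-month controls and 90.8% to 96.1% in Pdgfrβ-KO) and for myosin binding protein C (84.2% to 92.1% and 79.8% to 96.1%) the groups overlapped.

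Called members were found in each class of transcript length. Between the 12-month groups 8 of 18 members with under 3 kb of exon were called, with a median log2 fold change of -1.38. Of those with 3 to 5 kb it was 2 of 6 with -0.61, and of those with 5 kb or more 7 of 11 with -1.71. All were lower, where 4.46% of all genes tested were lower. Ttn, Neb and Myh4 belong to the longest class, as do Cacna1s and Myh7. Whether RNA quality differed between the groups was not tested.

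Against the 2-month controls, which the age comparison also uses, 25 of 38 members were lower in Pdgfrβ-KO and 0 were higher, where 22.7% of all 16370 genes tested were lower and 22.4% higher. The groups did not overlap for 10 members, all lower, against 20.4% of all genes, so the members' share of 10 of 38 is near the background on that measure. The called members were 13 of 14 fast, 11 of 16 shared and 1 of 8 slow ones, and the median log2 fold change was -1.80. The slow member was Mybpc1, at 64 to 173 in 2-month controls and at 10 to 56 in Pdgfrβ-KO, and the fast member that did not pass was Tnni2 (adjusted p = 0.115). Myh4 was again the largest, with a change of -3.68 ± 0.32 (adjusted p = 2.0e-05), followed by Acta1 with -2.73 ± 0.53 and Trdn with -2.71 ± 0.65.

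Further genes of skeletal muscle, a list of 50 that does not contain the members, is given beside them. It had 12 of 38 tested genes lower at 12 than at 2 months in controls, where 11.4% of all genes tested were lower. In Pdgfrβ-KO 5 of 34 were lower than in 12-month controls (4.46% of all genes) and 20 of 34 lower than in 2-month controls (22.7%). In each comparison 0 were higher. Those that fell in the knockout against 12-month controls were Casq2, a slow and cardiac calsequestrin (log2 change -1.33, adjusted p = 0.0171), Cmya5 (-1.06, 0.0169), the junctophilin Jph1 (-0.96, 0.0273) and the M band proteins Myom2 (-1.69, 0.0279) and Myom1 (-0.55, 0.0489). The median of the list was -0.62, against -1.32 for the members. The most abundant of the list included genes that other cells also use, such as Jph2, Myom1 and Phka1.

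Genes of muscle stem cells and myoblasts, which lie along the fibre, were scarce and lower with age. Of 14 listed, 5 were tested and 4 were lower at 12 months, where 11.4% of all genes tested were lower. Pax7, the transcription factor of satellite cells, stood at 34, 19, 32 and 84 in 2-month controls, at 14, 17, 5 and 11 in 12-month controls and at 5, 10, 6 and 2 in Pdgfrβ-KO. It fell by 1.66 on the log2 scale between the ages (adjusted p = 0.0211), while the difference between the 12-month groups was -0.95 (adjusted p = 0.260). Cdh15, a cadherin of the same cells, fell by 1.85 between the ages (adjusted p = 0.0166) and stood at 0, 13, 1 and 1 in Pdgfrβ-KO, with the high value in replicate 2.

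Markers of other cells that a depot could hold were read in the same libraries. The smooth muscle list, with Acta2 and Myh11, summed to 41311 to 48288 in 2-month controls, 21436 to 32924 in 12-month controls and 20099 to 25712 in Pdgfrβ-KO. Of its 12 genes 11 were lower with age, where 11.4% of all genes tested were lower. Between the 12-month groups 0 of the 12 passed, but 10 had a log2 change below 0 and 2 above. The median was -0.37, against -0.01 for all genes. The heart muscle list summed to 304 to 360 in 12-month controls and to 273 to 419 in Pdgfrβ-KO, with 0 of 6 tested genes called. Of these 6 log2 changes 4 were above 0 and 2 below. Its Myl7 was at 0 in every library, whereas Myl4 averaged 116 and 120 in these groups. Actc1 stood at 23, 53, 73 and 42 and at 21, 21, 8 and 18, lower without overlap. The brown and beige adipocyte list summed to 222 to 326 and 206 to 356, with 0 of 7 called. Nerve sheath genes summed to 8337 to 9318 and 8289 to 10959, with 1 of 10 lower, and 9 of 10 were lower with age. Endothelial genes had 1 of 8 lower between the 12-month groups, glandular epithelium 1 of 5, mature adipocytes 1 of 12 and the mitochondrial genome 3 of 10. Fibroblastic progenitors had 2 higher and 3 lower of 10. Of all genes tested between these groups 4.46% were lower and 4.96% higher, and a list this short with 1 gene called cannot be set apart from that share. Of 10 skin epithelium genes only 2 reached the minimum for testing, and 0 of these passed. The keratins of the basal epidermis were not tested, with Krt5 at 319, 48, 3 and 88 in 12-month controls and Krt14 at 532, 52, 5 and 164. Both were at 0 in all 4 Pdgfrβ-KO libraries, below every 12-month control, while the list as a whole summed to 951 to 2783 in 12-month controls and 766 to 1352 in Pdgfrβ-KO, and their part in the muscle result was not tested. In 2-month controls they were at 4 to 42 and at 1 to 39.

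Some genes of macrophages and of red blood cells were higher in Pdgfrβ-KO than in 12-month controls. Macrophage genes summed to 27531 to 38669 in 12-month controls and to 51774 to 83229 in Pdgfrβ-KO, with 6 of 8 higher. Red blood cell genes summed to 46598 to 101251 and to 64526 to 199675, with 3 of 6 higher and overlapping sums. Among all genes tested between these groups 4.96% were higher. The part of macrophages and red blood cells in the muscle result was not tested.

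The genes that are not members but follow them most closely were partly known muscle genes. Over the 12 libraries, and among 14675 genes with a mean of at least 20, the highest r with the sum of the members belonged to Rpl3l (0.96), a ribosomal protein of striated muscle, and to Acvr1 (0.96), a BMP receptor. Further genes among the first 20 were Pfkm (0.95), the phosphofructokinase of muscle, Cmya5 (0.93), Myom2 (0.92), Eef1a2 (0.92), the elongation factor of muscle and neurons, and Hfe2 (0.92), hemojuvelin. The list also held broadly used genes such as Cd9 (0.92), Tns2 (0.92) and the endothelial Nos3 (0.92). When group means were taken off first, 7 of these 20 stayed among the first 20, namely Hfe2 (0.97), Rpl3l (0.95), Myom2 (0.91), Eef1a2 (0.90), Pfkm (0.90), Acvr1 (0.89) and C77080 (0.88). Genes not known for muscle, such as Pcgf2 (0.94), Gprc5c (0.91) and Stx2 (0.91), ranked among them. Rpl3l averaged 29.2 normalized counts in 2-month controls and 11.8 in Pdgfrβ-KO.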

How the data were processed

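Polyadenylated RNA from inguinal fat of 12 male mice was read with a directional kit, 1 library per mouse. Per the submitters' notes the authors trimmed reads with Trim Galore 0.6.0, mapped them to GRCm38 with STAR 2.7.0e and normalized with DESeq2 1.26.0. The gene counter and its annotation are not given in the sources used here. Each deposited value is a score, a count divided by the authors' size factor and rounded. It was therefore not tested as a count. The 12-month control columns were found with equal values in both deposited tables (controls by age, and 12-month mice by genotype), so the 12 libraries were joined by identifier. Lines that name no gene (4) and columns without values (5) were dropped, and 0 per-sample columns remained unassigned. The 27 names and 1 identifier that differed between the tables were taken from the table of the 12-month groups.

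The test was that of limma 3.58.1 (R 4.3.3), with trend and robust estimation, on log2(value + 1), two-sided, on the 8 libraries of a comparison, for genes of at least 10 in at least 4 libraries. P-values were adjusted by Benjamini-Hochberg over all genes tested. Fold changes are on that scale and understate changes of low genes, and fold values of means are on the plain scale. The comparisons share control libraries. Size factors were estimated from the gaps that division and rounding leave in low values, searched up to 1.6, so library counts are estimates. The test was also run on simulated data with independent counts. These did not copy the lower depth of the knockout or the variation that members share, so they do not show how the test behaves under either. Whether replicate numbers pair the mice is not given in the labels, and the main test did not use them. Coordinates and exon lengths are from GENCODE vM21 (GRCm38), promoter sequences from RefSeq (GRCm38.p6). Python 3.11.15, pandas 2.3.3, scipy 1.17.1 and matplotlib 3.10.9 made the tables, permutations and figures.

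The members and all lists were chosen with earlier results of these data known. The text may name every member, up to 6 genes of each other list with the highest mean and any that passed where 5 or fewer did, the 20 genes most like the members and Pdgfrb. Myl7, Myh6, Ube2c, Rabep2, Pcgf2, Gprc5c and Stx2 fall outside that rule and were named after their values were seen. Alternatives were other pseudocounts, filters, scalings and limma settings, 1 fit over the 12 libraries, the replicate number as a block and each library left out. P-values set a group difference against the spread between the libraries of a group. With 1 library per mouse, mouse and handling cannot be told apart in that spread. Depth is that of the libraries, and counting error is included in that spread.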

Additional observations from a re-analysis of the deposited data

Results flagged for a closer look

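Of 141 members and sums examined in groups of 4 libraries, 25 had 1 library far from the other 3, each time on the high side. The values were not on a log scale, which favours the high side. The sums contain the members, and most members vary together, so the cases are not independent. Their number cannot be set against chance. In Pdgfrβ-KO the library was replicate 2 in all 12 cases. It held 68 normalized counts of Myh1, 258 of Myl1, 198 of Mylpf, 387 of Tnnt3, 377 of Tnnc2, 383 of Ckm, 176 of Pvalb, 116 of Mb and 24 of Myot, and sums of 5726 over all 38 members, 2685 over the fast fibre members and 1876 over the thin filament. In the 12-month controls it was replicate 2 in all 13 cases. That library held 1361 normalized counts of Acta1, 1261 of Tnnt3, 683 of Tnni2, 772 of Tnnc2, 1062 of Ckm, 556 of Pvalb, 161 of Mb, 205 of Tcap and 110 of Myoz1, and sums of 5653 over the members of both fibre types, 4390 over the thin filament, 1104 over the Z disc and 2689 over energy supply. Myh4, Ttn and Neb were not among these cases.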

How the results depend on the processing

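The count of 17 lower members in Pdgfrβ-KO against 12-month controls was 10 with limma without trend and robust estimation, 12 with no filter on low values and between 9 and 19 with 1 library left out. The age count of 4 was 1 with limma without trend and robust estimation, 1 with 1 fit over the 12 libraries and between 1 and 7 with 1 library left out. The count of 25 against 2-month controls ranged from 20 to 28 with 1 library left out. The cause was not tested. With 1 library left out, 25 of 296 log2 differences changed sign in the age comparison, 9 of 276 between the 12-month groups and 13 of 292 against 2-month controls, all of members that passed in neither fit. For age these ranged from -0.072 to 0.29 for Neb, -0.63 to 0.057 for Tnnt1, -0.15 to 0.037 for Eno3, -0.12 to 0.41 for Atp2a1, -0.39 to 0.44 for Tnnc1, -0.42 to 0.11 for Casq1, -0.58 to 0.0015 for Actn3, -0.77 to 0.0095 for Trdn, -0.66 to 0.028 for Myh2, -0.78 to 0.19 for Xirp2, -0.68 to 0.0088 for Ckm, -0.44 to 0.22 for Myoz1, -0.80 to 0.075 for Myh7 and -0.56 to 0.17 for Tnni1. Between the 12-month groups they ranged from -0.30 to 0.48 for Tnnc1, -0.044 to 0.10 for Eno3, -0.28 to 0.45 for Tnni1, -0.18 to 0.42 for Tnnt1 and -0.52 to 0.026 for Actn2. Against 2-month controls they ranged from -0.43 to 0.26 for Tnnt1, -0.33 to 0.12 for Tnni1, -0.12 to 0.062 for Eno3 and -0.31 to 0.53 for Tnnc1, and Tnnt1 was at -0.045 with upper-quartile rescaling. Pseudocounts of 0.5 and 5 and the median-of-ratios and upper-quartile rescalings changed no other sign and no call of a single member.

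The labels give the groups the same replicate numbers and do not say whether mice of the same number were paired or handled together. Correlations of same-numbered libraries ran from -0.216 to 0.157 for age, from -0.018 to 0.375 between the 12-month groups and from -0.275 to 0.141 against 2-month controls. With the replicate number as a block the counts were 3, 24 and 22.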
